A study of Homo sapiens with 3 samples.

Results

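The ZNF genes are a large family of human genes named for the zinc finger. They were taken here as all protein-coding genes in the array's annotation whose symbol is ZNF followed by digits, with the probe set of highest mean where a gene had several. Of 436 such genes with a named probe set, 328 were kept because the highest of their 3 arrays was at least 3.89 log2, and 108 lay below that floor. The 328 were compared with 8544 other protein-coding genes kept by the same floor, out of 8872 in all. ZNF symbols with a letter after the digits counted among the others, and 349 genes would be kept if 1 such letter were allowed. Of the measured ZNF genes 75.2% were kept, against 74.4% of 11479 other protein-coding genes. A further 41 ZNF genes of the RefSeq gene table had no named probe set and were not analysed here.

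The cells were MDA-MB-231, a long-established line from human triple-negative breast cancer that is often used to study invasive growth. Dishes received 10 µM Mt-CFX, 10 µM CFX or, as the control, 1% DMSO, each for 72 h, and the labels mention DMSO for the control alone. The title of the series refers to ciprofloxacin, an antibiotic of the fluoroquinolone class that acts on bacterial topoisomerases, and Mt-CFX is known here by its code name. Each group was 1 whole-transcript array, so the values below carry no error between replicates and no p-value, and an effect of a compound cannot be told apart from a difference between single dishes or arrays.

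Most ZNF proteins carry C2H2 zinc fingers, small folds that hold a zinc ion and read DNA a few bases at a time, and arrays of them give each protein its own binding sequence. Many also carry a KRAB domain, which recruits the co-repressor TRIM28 and the histone methyltransferase SETDB1, and these proteins are best known for silencing transposable elements. The genes multiplied by tandem duplication and stand in large clusters on chromosome 19. The name alone does not make a transcription factor: ZNF598 is a ubiquitin ligase of collided ribosomes, ZNF451 a SUMO ligase, ZNF622 and ZNF593 act in ribosome biogenesis, and ZNF185 is a LIM-domain protein of the actin cytoskeleton. All 5 were kept by the rule and are counted below. Protein sequences, fingers and KRAB domains were not analysed here.

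The array values are log2 expression values, and a difference between arrays is on the same scale, where 0.58 stands for 1.5-fold. Over all 53617 probe sets the array medians were 3.88 with Mt-CFX, 3.90 with CFX and 3.91 in the control. The line's mesenchymal markers were present, with VIM (vimentin) at 9.17 on all 3 arrays and 7 of 7 named markers of 12 at or above the floor. Epithelial markers were present too, with 4 of 4 named markers of 5 reaching the floor. Among these, KRT18 was at 8.36 on all 3 arrays, and EPCAM at 5.11, 5.37 and 5.37 with Mt-CFX, CFX and in the control. Of the luminal receptors, PGR (progesterone receptor) was at 2.39 on all 3 arrays and ESR1 (oestrogen receptor) at 3.81, 3.92 and 3.81 with Mt-CFX, CFX and in the control, but 4 of 5 named luminal markers reached the floor on at least 1 array, among them GATA3 at 5.52 on each. The leukocyte marker CD14, at 3.28, and the endothelial marker PECAM1, at 2.25, 2.59 and 2.59 in the same order, lay below the floor, and no fibroblast marker was named. In a bulk sample, fewer cells that express a gene and less RNA per cell cannot be told apart.

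Promoters of the ZNF genes differed from those of other genes in how often they held short known motifs, some more and some less often. RefSeq promoters of GRCh38.p14, 250 bases before to 50 after the start site, were matched for 288 of the 328 ZNF genes and 7055 of the other genes. The ETS-type core CCGGAAG, searched on both strands, stood in 124 ZNF promoters (43.1%), against 17.6% of the other genes' and 10.7% of all 27305 promoters of the table. CCAAT on either strand stood in 47.6% of ZNF promoters, against 36.2% of the others and 35.7% of all. The GC box GGGCGGG went the other way, with 47.2% of ZNF promoters against 54.0% of the others and 32.9% of all. TATAAA was found in 2.43% of ZNF promoters and 5.73% of the others, and in 11.95% of all. ACTACAA stood in 6.60% of ZNF promoters against 3.501% of the others, and TGACGTCA in 5.21% against 3.00%. AAGATGGC stood in 5.21% against 5.39%, and the palindromic NRF1-type motif in 1.74% against 2.38%. The median GC content was 62.0% in ZNF promoters and 65.3% in the others. Shown here are the promoters of the 7 genes that differed by at least 1.5-fold in any comparison of the arrays, whose values follow below. Each runs 5′ to 3′ on the gene's strand, and capitals mark the ETS-type core, CCAAT and the GC box or their reverse complements. A match is a description of the letters and not a bound site.
ZNF485, chr10:43606188-43606487, plus strand: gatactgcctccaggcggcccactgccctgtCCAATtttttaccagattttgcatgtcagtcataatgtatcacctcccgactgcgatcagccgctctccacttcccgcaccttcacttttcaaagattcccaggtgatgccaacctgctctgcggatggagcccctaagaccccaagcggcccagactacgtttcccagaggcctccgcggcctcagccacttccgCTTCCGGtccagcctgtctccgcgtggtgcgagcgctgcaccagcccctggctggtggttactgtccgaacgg
ZNF697, chr1:119648217-119648516, minus strand: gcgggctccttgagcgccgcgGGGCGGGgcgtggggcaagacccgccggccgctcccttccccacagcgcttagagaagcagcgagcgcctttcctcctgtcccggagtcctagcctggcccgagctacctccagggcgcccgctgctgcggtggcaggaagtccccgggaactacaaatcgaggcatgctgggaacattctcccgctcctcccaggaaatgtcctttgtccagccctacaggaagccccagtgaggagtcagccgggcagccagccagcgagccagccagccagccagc
ZNF766, chr19:52269337-52269636, plus strand: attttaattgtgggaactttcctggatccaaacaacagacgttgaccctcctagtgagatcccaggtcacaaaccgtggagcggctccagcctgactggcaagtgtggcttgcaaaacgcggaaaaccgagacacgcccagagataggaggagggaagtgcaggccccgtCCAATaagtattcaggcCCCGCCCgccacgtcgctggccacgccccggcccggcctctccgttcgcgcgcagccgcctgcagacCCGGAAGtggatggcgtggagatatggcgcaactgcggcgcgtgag
ZNF605, chr12:132956257-132956556, minus strand: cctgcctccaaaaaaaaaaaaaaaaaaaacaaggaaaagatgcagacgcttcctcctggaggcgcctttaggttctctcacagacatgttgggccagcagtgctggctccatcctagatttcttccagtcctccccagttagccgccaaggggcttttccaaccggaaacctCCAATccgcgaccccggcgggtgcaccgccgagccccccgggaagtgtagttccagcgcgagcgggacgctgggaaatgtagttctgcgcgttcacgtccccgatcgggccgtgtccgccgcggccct
ZNF594, chr17:5191819-5192118, minus strand: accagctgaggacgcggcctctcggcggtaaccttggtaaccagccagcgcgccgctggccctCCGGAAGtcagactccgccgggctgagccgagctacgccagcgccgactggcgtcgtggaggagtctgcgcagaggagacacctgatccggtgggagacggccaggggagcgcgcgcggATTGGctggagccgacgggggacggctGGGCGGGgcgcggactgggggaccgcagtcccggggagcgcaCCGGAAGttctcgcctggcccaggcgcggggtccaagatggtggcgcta
ZNF607, chr19:37719139-37719438, minus strand: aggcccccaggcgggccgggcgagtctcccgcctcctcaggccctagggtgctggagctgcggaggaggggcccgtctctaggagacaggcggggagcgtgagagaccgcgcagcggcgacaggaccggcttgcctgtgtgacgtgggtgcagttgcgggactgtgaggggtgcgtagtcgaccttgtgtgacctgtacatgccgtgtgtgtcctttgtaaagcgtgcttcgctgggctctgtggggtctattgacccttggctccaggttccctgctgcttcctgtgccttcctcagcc
ZNF836, chr19:52171572-52171871, minus strand: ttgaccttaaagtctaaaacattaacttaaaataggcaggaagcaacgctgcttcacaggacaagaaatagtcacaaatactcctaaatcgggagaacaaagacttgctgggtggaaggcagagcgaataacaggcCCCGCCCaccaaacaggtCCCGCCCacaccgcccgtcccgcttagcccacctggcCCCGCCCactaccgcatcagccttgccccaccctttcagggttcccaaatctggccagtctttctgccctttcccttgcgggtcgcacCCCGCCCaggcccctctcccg

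The 7 promoters had no arrangement in common. ZNF594 held the ETS-type core in 2 places, ZNF485 and ZNF766 in 1 each, and ZNF697, ZNF605, ZNF607 and ZNF836 in none. ZNF836 held the GC box in 4 places, and ZNF607 held none of the 3 motifs. The 10-base sequence CCTGATTGGA, whose reverse complement TCCAATCAGG contains CCAAT, had the largest difference in share between ZNF and other promoters among 62974 words of that length, and was picked for that difference after the values were seen. It stood in 33 ZNF promoters (11.5%), in 9 of the others (0.128%) and in 0.388% of all promoters. In 32 of the 33 it ran as TCCAATCAGG on the gene's strand, 23 of the 33 genes were on chromosome 19, and it lay 32 to 233 bases before the start site, with a median of 71. The exception, ZNF490, shared 1 site with ZNF791, read from opposite strands, so that site was counted for both genes. Below are 30-base windows around it from the 8 holders with the largest difference between Mt-CFX and control, in either direction, with the 10 bases in capitals.
ZNF708, chr19:21329423-21329452, minus strand: tttaacattaTCCAATCAGGgactctgagc
ZNF823, chr19:11739030-11739059, minus strand: tggagcactaTCCAATCAGGgatgaggggg
ZNF430, chr19:21020589-21020618, plus strand: cagggaaccgTCCAATCAGGcacgcaggtg
ZNF441, chr19:11766955-11766984, plus strand: tggcgcactaTCCAATCAGGgccgcggggc
ZNF138, chr7:64794330-64794359, plus strand: ttaaacgttaTCCAATCAGGgacgccgggc
ZNF77, chr19:2945148-2945177, minus strand: gagagaattaTCCAATCAGGacaggcaggg
ZNF878, chr19:12053016-12053045, minus strand: tagacccctaTCCAATCAGGggcgctaggg
ZNF680, chr7:64563140-64563169, minus strand: ctaaacattaTCCAATCAGGgacgcggggc

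The 8 genes shown did not share a direction. ZNF708, ZNF441, ZNF138, ZNF77 and ZNF680 had higher values with Mt-CFX than in the control, by 0.50, 0.39, 0.36, 0.35 and 0.28. ZNF823, ZNF430 and ZNF878 had lower ones, with differences of -0.45, -0.43 and -0.31. The control value of ZNF708, 3.84, and the Mt-CFX value of ZNF430, 3.65, were below the floor. Over the 33 holders, 13 were higher (39.4%), 5 lower (15.2%) and 15 equal with Mt-CFX. Over the 255 ZNF genes without the element 80 were higher (31.4%) and 31 lower (12.2%). For the ETS-type core, 48 of 124 holders were higher (38.7%) and 14 lower (11.3%). Of 164 others with a promoter 45 were higher (27.4%) and 22 lower (13.4%). Of all genes kept 23.9% were higher and 23.2% lower, so holders and non-holders leaned the same way. Whether a motif bears on the direction was not tested.

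ZNF genes had lower signals than other genes on this array. Their median was 5.32 with Mt-CFX, 5.25 with CFX and 5.24 in the control, and that of the other kept genes was 5.86, 5.88 and 5.88. The mean of a ZNF gene over the 3 arrays had a median of 5.27, quartiles of 4.67 and 5.91 and a range of 3.73 to 9.04, against a median of 5.87, quartiles of 4.87 and 6.97 and a maximum of 11.3 in other genes. The genes were chosen by the highest of these levels, which are therefore given as a description. Just inside the floor, with highest values of 3.91, 3.92 and 3.92, were ZNF124, ZNF671 and ZNF566. Just outside it, with 3.86, 3.86 and 3.88, were ZNF397, ZNF853 and ZNF558. Of the 328, 8 had at least 1 array below the floor, and such a gene had to differ between arrays to be kept.

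The strongest ZNF signals came from genes with varied roles, although different probe sets differ in brightness, so their order is one of array signal and not of transcript number. ZNF207, a spindle assembly factor that binds the checkpoint protein BUB3, had 9.09 with Mt-CFX and 9.02 with both CFX and control. ZNF644, a partner of the histone methyltransferases EHMT1 and EHMT2, had 8.47 on all 3 arrays. ZNF121 had 8.56 with Mt-CFX, 8.29 with CFX and 8.22 in the control. In ZNF121 the Mt-CFX array stood apart from both others, while ZNF644 did not vary at all. ZNF460 had 8.29 with Mt-CFX and 8.01 on the other two arrays. ZNF106, an RNA-binding protein, had 7.96 and ZNF850 7.85 on every array. ZNF146, made almost solely of fingers, had 7.90, 7.90 and 7.88 with Mt-CFX, CFX and in the control. Of those 4 genes, 1 was tied on CFX and control, 2 were tied throughout and 1 was tied on the treated arrays. ZNF326, which links splicing to transcript elongation, had 7.78 with Mt-CFX, 7.89 with CFX and 7.83 in the control. ZNF841 had 7.87, 7.71 and 7.70 in that order, and ZNF185 had 7.58, 7.49 and 7.58.

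**Figure D1:**
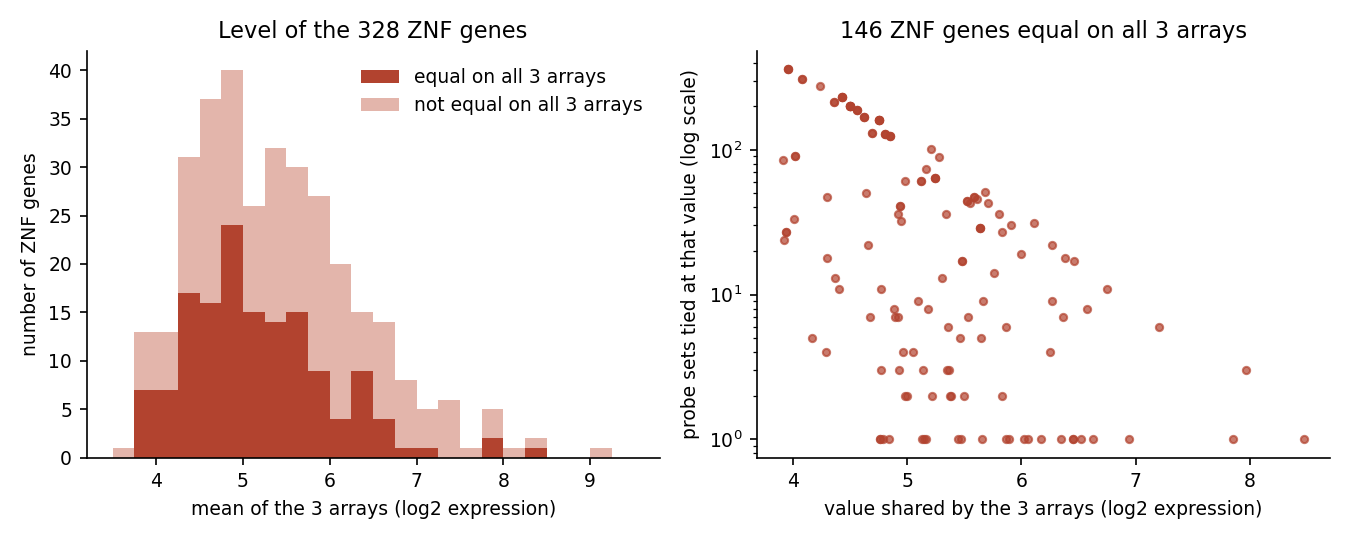
Left, number of the 328 ZNF genes by mean log2 expression of the 3 arrays, with genes equal on all 3 arrays in dark and the others stacked above them in pale. Right, the 146 genes equal on all 3 arrays, 1 point each, by the value they hold (log2 expression) and the number of probe sets tied at that value (log scale); the most widely shared value, with 360 probe sets, lies at 3.96.

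Exact ties were the most common pattern. Of the 328 ZNF genes, 146 (44.5%) had the same deposited value on all 3 arrays to the last decimal, beside 45.4% of all 8872 genes kept and 45.4% of the other genes. Over all probe sets 49.5% were tied in this way, 26540 of them on 2624 distinct values. The tied ZNF genes had 110 distinct values between 3.91 and 8.47, with a median of 5.11. Of the 146, 123 (84.2%) held a value that other tied probe sets also held, against 80.5% of the other tied genes. Values held by at least 10 probe sets accounted for 89 (61.0%), against 57.1% of the other tied genes, and values held by at least 100 for 38. The median tied ZNF gene shared its value with enough probe sets to make 27 in all, against 18 for other tied genes. How the deposited values came to be tied was not tested.

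Different ZNF genes therefore had identical values. ZNF10, ZNF43, ZNF114, ZNF232, ZNF324 and ZNF561 all had 4.496 on each array, a value held by 200 probe sets. ZNF438, ZNF492, ZNF772, ZNF837 and ZNF865 all had 4.75, with 160 probe sets, and ZNF467, ZNF628, ZNF684 and ZNF713 had 4.43, with 231. ZNF214, ZNF425 and ZNF583 shared the most common value, 3.96, with 360 probe sets. In all, 56 of the tied ZNF genes shared their value with another ZNF gene, on 20 values. A further 23 (15.8%) held a value that no other tied probe set held, against 19.5% of other tied genes.

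The remaining ZNF genes were split between ties of 2 arrays and 3 distinct values. CFX and control were equal, with Mt-CFX apart, in 43 genes (13.1%, against 13.9% of other genes), where Mt-CFX was higher in 25 and lower in 18, by a median size of 0.12. Mt-CFX and control were equal in 38 (11.6% against 7.41%), where CFX was higher in 19 and lower in 19, by a median size of 0.072. Mt-CFX and CFX were equal in 37 (11.3% against 9.28%), and both treated arrays were higher than the control in 24 and lower in 13, by a median size of 0.093. All 3 arrays were distinct in 64 genes (19.5% against 24.1%). Ties of single pairs thus took a larger share in the ZNF genes than in other genes for Mt-CFX with control and for Mt-CFX with CFX, and a slightly smaller one for CFX with control.

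**Figure D2:**
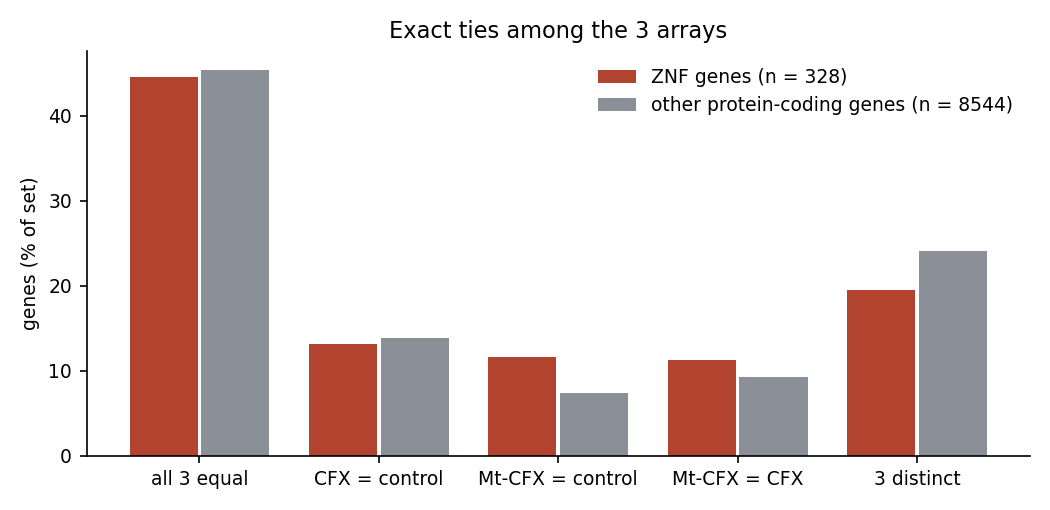
Share of genes (%) by which of the 3 arrays have exactly the same value, for the 328 ZNF genes and the 8544 other protein-coding genes. Ties of all 3 arrays lie at 44.5% of ZNF genes and 45.4% of other genes, and a tie of Mt-CFX with control at 11.6% and 7.41%.

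Among the 64 ZNF genes with 3 distinct values, Mt-CFX was the highest array in 47 (73.4%), against 39.7% of the 2056 other genes of that kind. The order Mt-CFX above CFX above control held in 29 (45.3% against 30.8%), and Mt-CFX above control above CFX in 18 (28.1% against 8.95%). The reverse of the first order, with Mt-CFX lowest and control highest, held in 2 (3.13% against 23.1%). CFX was the highest array in 11 of the 64 and the control in 6.

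Across the 3 arrays, the range of a ZNF gene had a median of 0.026 and an upper quartile of 0.17, against 0.022 and 0.15 in other genes. A range of at least 0.1 was found in 110 ZNF genes (33.5%), against 33.5% of other genes. A range of at least 0.2 was found in 74 (22.6% against 19.3%) and of at least 0.5 in 15 (4.57% against 4.63%). The widest ZNF range was 1.28, in ZNF836, and the widest of the other genes 3.35.

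With Mt-CFX, more ZNF genes were above the control than below it. The Mt-CFX value was higher in 102 (31.1%), beside 23.9% of all genes kept, lower in 42 (12.8%), beside 23.2%, and equal in 184. Other genes were balanced, with 2017 higher and 2016 lower. Of the ZNF genes that differed, 70.8% were higher, and the median of their differences was 0.083, against 50.01% and 0.00041 in other genes that differed. The median over all 328 was 0. The mean difference was 0.043, against 0.00099 in other genes. By at least 0.1 log2, 63 ZNF genes were higher and 22 lower, against 1151 and 1221 other genes, and by at least 0.2 log2 45 were higher and 12 lower, against 675 and 713. The SD across ZNF genes was 0.159 against 0.213 in other genes, and the range -0.48 to 0.68 against -3.35 to 3.14. The typical size did not follow the SD, since the median size of the differences that were not 0 was 0.149 in ZNF genes against 0.129 in others, and 17.4% of ZNF genes differed by at least 0.2 against 16.2% of others.

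The higher share with Mt-CFX was seen at every level of signal. Among the 58 ZNF genes below a mean of 4.5, 22.4% were higher and 13.8% lower than in the control, against 14.1% and 12.6% of other genes. Among the 58 between 5 and 5.5, 37.9% were higher and 6.90% lower, against 18.2% and 18.96%. Among the 21 at 7 or above, 57.1% were higher and 14.3% lower, against 33.0% and 34.7%. In the bin between 4.5 and 5 the ZNF genes were closest to the others, with 20.8% higher and 11.7% lower against 18.4% and 14.2%. The SD of ZNF genes was 0.172 against 0.141 below 4.5, 0.154 against 0.155 between 4.5 and 5, and 0.170 against 0.185 between 5 and 5.5. From 5.5 upward it was 0.129 to 0.164 against 0.212 to 0.263.

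**Figure D3:**
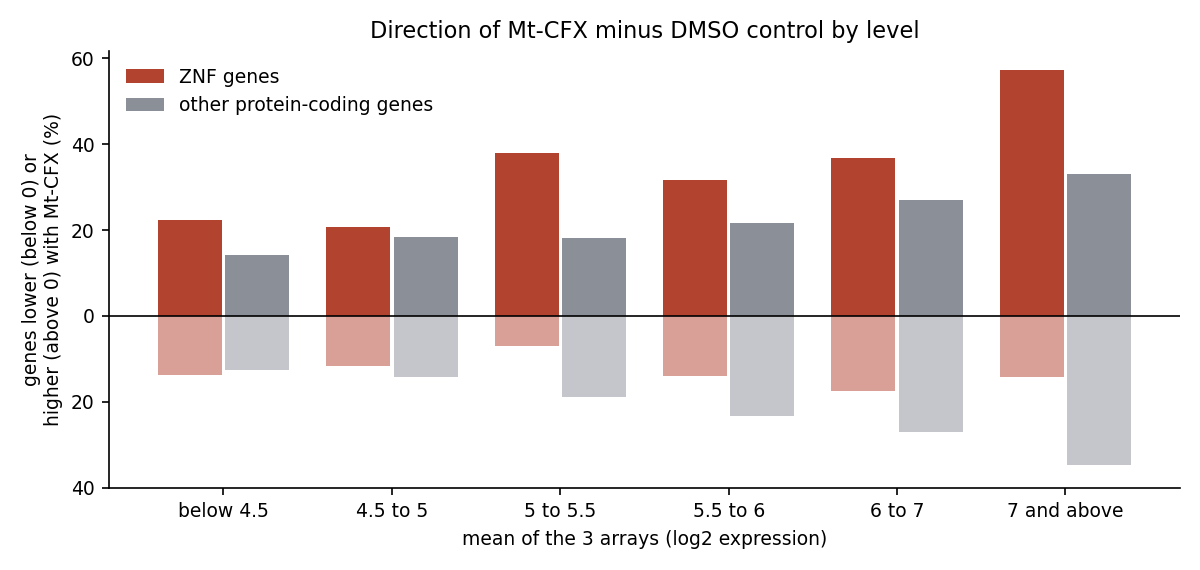
Share of genes (%) higher (above 0, dark) and lower (below 0, pale) with Mt-CFX than in the control, in 6 bins of mean log2 expression, for ZNF genes and other protein-coding genes. The higher share of ZNF genes is above that of other genes in each bin, from 22.4% against 14.1% below 4.5 to 57.1% against 33.0% at 7 and above.

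With CFX, the ZNF genes lay closer to other genes in direction and spread wider than they did. CFX was higher than the control in 83 ZNF genes (25.3%), beside 25.8% of all genes kept, lower in 56 (17.1%), beside 15%, and equal in 189. Of those that differed 59.7% were higher, against 63.4% of other genes. The mean difference was 0.0064, against 0.010. The SD across ZNF genes was 0.141, against 0.0919 across other genes, and 0.122 without ZNF836. In the lowest level bin, below 4.5, the SD was 0.222 against 0.112, and 0.145 without ZNF836, which was kept through its CFX array alone, and at 7 or above it was 0.0364 against 0.0838.

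Mt-CFX over CFX, both at 10 µM and 72 h, again had more ZNF genes on the higher side. Mt-CFX was higher in 95, beside 20.1% of all genes kept, lower in 50, beside 25.2%, and equal in 183, while of other genes 1691 were higher and 2182 lower. Of the ZNF genes that differed 65.5% were higher with Mt-CFX, against 43.7% of other genes, and the mean difference was 0.037 against -0.0093. The SD was 0.160 against 0.192. The comparisons share arrays, so their counts are not independent of each other. Side by side, 59 ZNF genes were higher than the control with both compounds, 19 lower with both, 18 higher with Mt-CFX and lower with CFX, and 5 lower with Mt-CFX and higher with CFX.

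**Figure D4:**
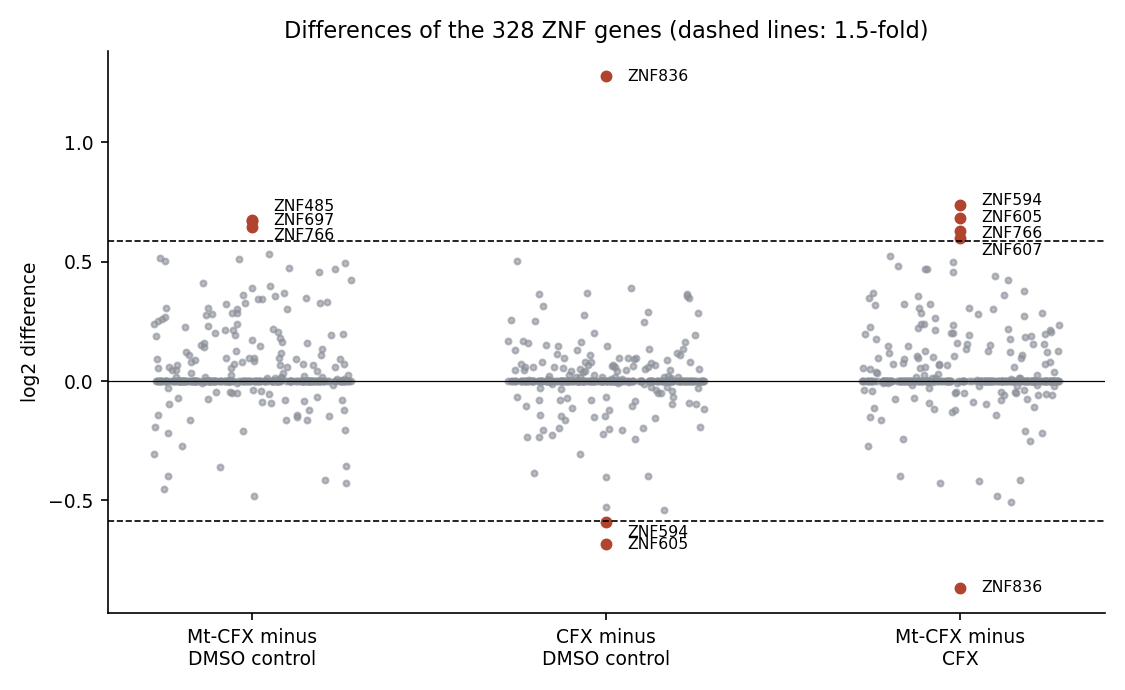
Log2 differences of the 328 ZNF genes in the 3 comparisons, 1 point per gene, spread sideways for legibility; red points with names are at least 1.5-fold, and dashed lines mark 1.5-fold. Mt-CFX minus control runs from -0.48 to 0.68, CFX minus control from -0.68 to 1.28 and Mt-CFX minus CFX from -0.87 to 0.74, and many points lie at exactly 0.

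Differences of 1.5-fold were rare. In any comparison 7 ZNF genes (2.13%) reached it, against 270 other genes (3.16%). For Mt-CFX over control 3 ZNF genes reached 1.5-fold, all higher, beside 2.71% of all genes in either direction (1.45% higher and 1.25% lower). For CFX over control 3 did, 1 higher and 2 lower, beside 0.147% of all genes (0.0451% higher and 0.101% lower). The 1 higher gene, ZNF836, passed the floor through the CFX array alone, so its count as higher draws on the floor itself, and 2 remain without it. For Mt-CFX over CFX 5 did, 4 higher and 1 lower, beside 2.15% of all genes (1.13% higher and 1.03% lower). At 2-fold the count was 1 for CFX over control, ZNF836, beside 0.0225% of all genes and with the same limit, 0 for Mt-CFX over control, beside 0.564%, and 0 for Mt-CFX over CFX, beside 0.383%.

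ZNF485, ZNF697 and ZNF766 had higher values with Mt-CFX than in the control. ZNF485 had 5.12 with Mt-CFX, 4.69 with CFX and 4.44 in the control, which is 1.60-fold for Mt-CFX over control. ZNF697 had 5.42 with Mt-CFX, 5.10 with CFX and 4.75 in the control, or 1.59-fold. ZNF766 had 7.03 with Mt-CFX, 6.40 with CFX and 6.38 in the control, or 1.56-fold. The CFX array lay between the others in ZNF485 and ZNF697, and at the control's level in ZNF766, which was the only 1 of the 3 with a signal above 6 on every array. The control value of ZNF697 was held by 228 probe sets of that array, and the CFX value of ZNF485 by 184 of its array.

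ZNF605, ZNF594 and ZNF607 had their lowest value with CFX. ZNF605 had 5.05 with Mt-CFX, 4.36 with CFX and 5.05 in the control, where Mt-CFX and control were equal, and CFX was 1.61 times lower than the control. ZNF594 had 5.01 with Mt-CFX, 4.27 with CFX and 4.86 in the control, a difference of -0.59 for CFX and of 0.74 for Mt-CFX over CFX. ZNF607 had 4.11 with Mt-CFX, 3.51 with CFX, which is below the floor, and 4.05 in the control, and passed 1.5-fold for Mt-CFX over CFX alone. Set against the floor in place of that CFX value, the Mt-CFX value was at least 1.17-fold higher. ZNF836 went the other way. It had 3.58 with Mt-CFX, 4.44 with CFX and 3.17 in the control, and it passed the floor through the CFX array alone. Set against the floor in place of its control value, the CFX value was at least 1.47-fold higher.

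**Figure D5:**
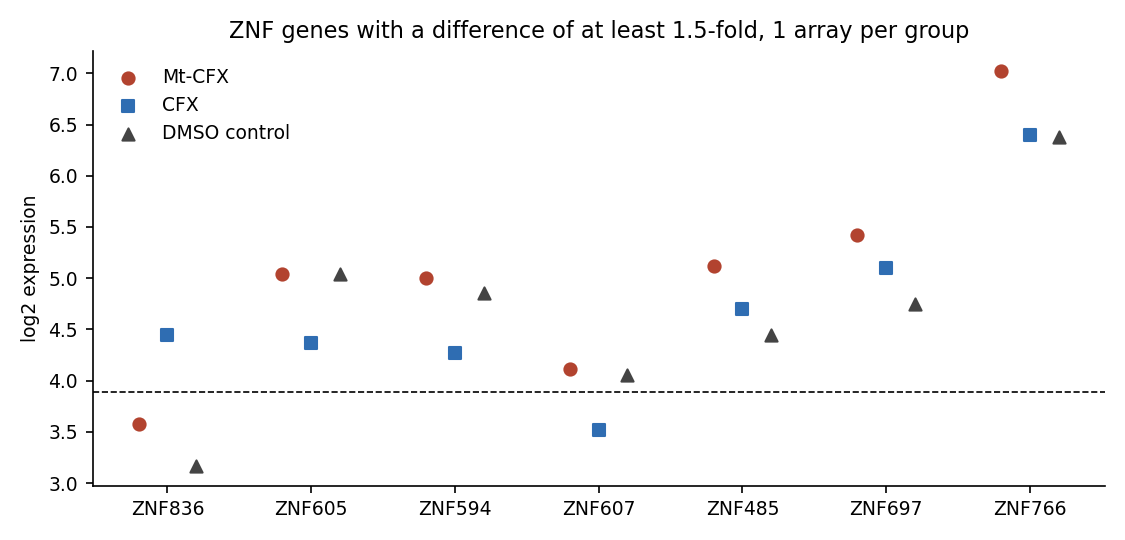
Log2 expression of the 7 ZNF genes that differ by at least 1.5-fold in any comparison, with 1 point for each array (Mt-CFX, CFX, DMSO control); the dashed line is the floor of 3.89. ZNF836 lies below the floor with Mt-CFX and in the control, and ZNF607 with CFX.

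Short of 1.5-fold, the next largest positive differences with Mt-CFX were those of ZNF845 and ZNF770. ZNF845 had 5.53 with Mt-CFX, 5.16 with CFX and 5.002 in the control, and ZNF770 had 7.004, 6.51 and 6.49. At the other end was ZNF618, which is known to bind hydroxymethylated DNA with UHRF2 and had 5.32 with Mt-CFX and 5.80 with both CFX and control. ZNF341, a transcription factor of the STAT3 gene, had 4.33 with Mt-CFX and 4.75 on the other two arrays. ZNF444 had 4.09 with both compounds and 4.49 in the control. ZNF823 also had its highest value in the control, with 5.59 with Mt-CFX, 5.51 with CFX and 6.04 in the control. In ZNF430, ZNF530 and ZNF736 Mt-CFX was the lowest array. ZNF430 had 3.65 with Mt-CFX and 4.08 on the other two, ZNF530 had 3.66, 4.16 and 4.01 with Mt-CFX, CFX and in the control, and ZNF736 had 4.10, 4.52 and 4.46. The first of those values of ZNF430 and ZNF530 is below the floor.

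With CFX, ZNF32 was next above the control, with 4.31 with Mt-CFX, 4.71 with CFX and 4.21 in the control. ZNF181 had 5.52, 5.41 and 5.02 in the same order, ZNF461 had 4.61, 4.63 and 4.26, and ZNF284 had 6.14 with both compounds and 5.77 in the control. ZNF32 was high with CFX alone, and the other 3 were high with both compounds. Below the control with CFX was ZNF655, with 7.08 with Mt-CFX, 6.61 with CFX and 7.01 in the control. ZNF383 had a like order, with 5.99 with Mt-CFX, 5.47 with CFX and 5.85 in the control.

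Members with well-described roles varied much as the family did. Of 30 such genes named whatever their values, 27 were kept, ZNF93 and ZNF750 lay below the floor, and ZNF365 had no named probe set. A range of at least 0.1 was found in 10 of the 27 (37.0%, against 33.5% of the family), and of at least 0.2 in 6 (22.2% against 22.6%). ZNF143, which binds promoters and chromatin loop anchors, had 5.88 on all 3 arrays to 2 decimals, and ZNF148, a factor of GC-rich promoters, had 6.75 on each. ZNF281, a related factor linked to mesenchymal change, had 6.76 with both compounds and 6.72 in the control. ZNF217, a breast cancer oncogene, had 7.41 with Mt-CFX, 7.38 with CFX and 7.32 in the control. Among these 4 regulators no range reached 0.1. ZNF703, which is amplified in luminal breast tumours, had 4.46 with both compounds and 4.603 in the control. ZNF423 and ZNF521, related partners of EBF factors, had 4.08 and 4.96 on every array, the first of which is a value held by 308 tied probe sets.

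Of the transposon repressors, ZNF91, which silences SVA elements, had 4.43 with Mt-CFX, 4.17 with CFX and 4.16 in the control. ZNF638, which silences unintegrated retroviral DNA, had 7.59 with Mt-CFX, 7.47 with CFX and 7.40 in the control. ZNF410, which activates the gene of the remodeller CHD4, had 5.38 on every array, while CHD4 itself had 8.35 with Mt-CFX and 8.41 on the other two. Among the proteins that are not classical DNA-binding factors, ZNF598 had 6.62 with Mt-CFX and 6.27 with CFX and in the control. ZNF451 had 7.07 with Mt-CFX and 7.19 on the other two. ZNF593 had 4.84 with Mt-CFX and 4.77 on the other two, and ZNF622 had 6.36 on every array. ZNF598 was thus the one of these 4 with the widest range, 0.35.

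Of the preset genes not yet described, ZNF330, ZNF688 and ZNF267 had the widest ranges. ZNF330 had 6.32 with Mt-CFX, 6.02 with CFX and 6.22 in the control, and ZNF688 had 4.38, 4.14 and 4.36, both lowest with CFX. ZNF267 had 5.92 with both compounds and 5.72 in the control. ZNF24 had 6.34, 6.34 and 6.33 with Mt-CFX, CFX and in the control. ZNF160 had 5.71 with Mt-CFX and 5.68 on the other two, ZNF292 had 5.76 with Mt-CFX and 5.77 on the other two, and ZNF706 and ZNF765 had 5.63 and 4.73 with Mt-CFX and in the control and 5.67 and 4.82 with CFX.

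The family's place in the genome was not used by the rule. Chromosome 19 held 150 of the 328 genes (45.7%), against 6.69% of other genes, followed by chromosome 16 with 26 and chromosome 7 with 23. On chromosome 19, 53 ZNF genes were higher with Mt-CFX than in the control and 16 lower, with a mean difference of 0.063. ZNF genes on other chromosomes had 49 higher and 26 lower, with a mean of 0.027. The 572 other genes on chromosome 19 had 97 higher and 140 lower, with a mean of -0.0094. With CFX, chromosome 19 had 42 ZNF genes higher and 30 lower, other chromosomes 41 and 26, and the other genes of chromosome 19 88 and 117. So the higher counts on chromosome 19 were those of its ZNF genes and not of the other genes there.

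Neighbouring ZNF genes were taken as runs of consecutive protein-coding genes in the RefSeq order. For the runs alone, ZNF symbols with a letter after the digits counted as ZNF genes, and so did genes that were not kept. In runs of at least 2 ZNF genes were 205 of the 328, of which 71 were higher with Mt-CFX and 21 lower, or 34.6% and 10.2%. Of the 123 that stood alone 31 were higher and 21 lower, or 25.2% and 17.1%, beside 23.9% and 23.2% of all genes kept. Of the 13 runs with at least 5 kept genes, 10 had more genes higher than lower, 2 more lower and 1 as many. The run with the most kept genes, ZNF283 to ZNF180 on chromosome 19, had 14, of which 5 were higher with Mt-CFX, 0 lower and 9 equal to the control. ZNF566 to ZNF793 had 11, with 4 higher and 0 lower, and ZNF766 to ZNF83 had 7, with 4 higher, 0 lower and a mean difference of 0.156. ZNF177 to ZNF846 had 5, with 4 higher, 0 lower and a mean of 0.171. ZNF627 to ZNF791 had 6 of 12 higher and 2 lower, and ZNF737 to ZNF681 had 4 of 11 higher and 3 lower. On chromosome 16, ZNF768 to ZNF689 had 4 of 6 higher and 0 lower. The 8 genes from ZNF786 to ZNF746 on chromosome 7 had 0 higher and 3 lower, and the 5 from ZNF524 to ZNF580 were all equal on the 3 arrays. Neighbouring genes of the family can be similar enough for probes to share signal, and neither their similarity nor the probes were analysed here.

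The measured genes of a list of KRAB co-repressors and linked chromatin factors were mostly on the other side of the control. SETDB1, the methyltransferase that KRAB domains recruit, was on the list but not among those measured. Of 29 listed, 22 were measured, and with Mt-CFX 2 were higher, 14 lower and 6 equal, with a median difference of -0.049, beside 23.9% higher and 23.2% lower among all genes kept. The genes named here were picked after their values were seen. TRIM28, the co-repressor that KRAB domains bind, had 8.42 with Mt-CFX, 8.83 with CFX and 8.87 in the control. UHRF1, which recruits the maintenance methyltransferase, had 7.09 with Mt-CFX, 8.07 with CFX and 8.28 in the control. DNMT1, that methyltransferase, had 8.75 with Mt-CFX and 8.97 on the other two arrays. EHMT1 and EHMT2, which methylate histone H3, differed by -0.27 and -0.22. ATF7IP, the partner of SETDB1, and PPHLN1, of the HUSH complex, were higher, by 0.013 and 0.044. With CFX 6 of the 22 were higher, 3 lower and 13 equal to the control.

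Other C2H2 families, set beside the ZNF genes, held fewer genes. With Mt-CFX over control, 11 of 36 ZBTB genes were higher and 4 lower, and 5 of 16 ZSCAN genes higher and 0 lower, beside 23.9% higher and 23.2% lower of all genes kept. Of 10 ZFP genes 3 were higher and 1 lower, and of 6 ZKSCAN genes 2 and 2. Of 12 genes taken by the symbol prefix SP, 1 was higher and 2 lower. They include SP100, SP110, SP140 and SP140L, which share the prefix but are not C2H2 genes. The higher gene was SP100, by 0.079, and the lower ones were SP140L and SP7, with differences of -0.124 and -0.111. The KLF genes, which bind GC-rich sites, had 9 of 13 higher and 1 lower, with a median of 0.051. KLF7, named after its values were seen, had 6.42 with Mt-CFX, 5.86 with CFX and 5.73 in the control. Both EGR genes kept were higher, but by unlike amounts. EGR1, an immediate early gene, had 9.06 with Mt-CFX, 6.17 with CFX and 5.92 in the control. EGR3, near the floor, had 4.13 with Mt-CFX and 4.08 with CFX and in the control. Of the GLI genes 0 of 3 differed, and 1 of 2 ZIC, 1 of 2 IKZF and 1 of 3 SNAI genes were lower. CTCF and YY1 were lower, with differences of -0.18 and -0.20, and REST was higher by 0.33. The median was 0 in the ZBTB, ZSCAN, ZFP and ZKSCAN families and among the genes with the SP prefix, as it was in the ZNF genes.

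More than 1 named probe set existed for 15 of the 328 genes, and in 8 of these the probe sets gave differences more than 0.1 apart in some comparison. For ZNF383 and ZNF770 the other probe set was equal on all 3 arrays and below the floor, at 3.31 and 2.59, so their differences rest on 1 probe set. For ZNF668 the probe set used was at 4.93 on every array, while the other had 4.09 with Mt-CFX, 3.76 with CFX and 4.18 in the control. For ZNF224, a KRAB repressor, the probe set used was at 5.76 on every array, while the other had 4.001, 4.33 and 4.09 in the same order.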

How the data were processed

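Total RNA of 3 cultures was labelled by whole-transcript kits and hybridised to 1 array each, per the labels' protocols. The deposited values are log2 expression values. Per the submitters' processing notes, the authors used Affymetrix Expression Console and its RMA method, and versions and genome build are not given in the sources used here. As background, RMA gives all arrays a common distribution, and once sorted, the values of 2 arrays were never more than 0.245 apart, so a difference in total RNA would not be visible.

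Of 53617 probe sets, 16098 had 1 gene symbol in the platform annotation, 0 had several and 37519 had none. Gene types, chromosomes and gene order came from the RefSeq table of GRCh38.p14. The named probe sets stood for 11915 protein-coding genes. The floor of 3.89 is the median of all probe sets, 3.8932, to 2 decimals. Differences were taken between single arrays, with no test, and genes were counted by sign and by 1.5-fold and 2-fold. Equal means the same deposited value.

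The ZNF genes, lists and alternatives were chosen with earlier results of these data known. Named were the 10 highest signals, the 5 highest and 5 lowest differences of each comparison, every gene past 1.5-fold, the 3 on either side of the floor, 4 genes whose probe sets differed and 30 preset genes; the printed promoters are those of the genes past 1.5-fold, and the printed windows follow the size of the difference with Mt-CFX, both picked after the values were seen. Counting was tested on simulated data. Protein features, planned at first, were not analysed here. Alternatives were other floors and symbol patterns, averaged probe sets, tolerances for ties, 2-fold, and re-centring by a lowess curve (span 0.3). Python 3.11.15, numpy 2.4.6, pandas 2.3.3, scipy 1.17.1, statsmodels 0.14.6 and matplotlib 3.10.9 were used. The number of arrays limits the precision.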

Additional observations from a re-analysis of the deposited data

Results flagged for a closer look

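Outside the probe sets used for the family, 2 further probe sets of ZNF genes lay above the floor and above the control array. The other probe set of ZNF224 was higher by 0.24 with CFX, at 4.33 against 4.09 in the control, while the one used was equal on all 3 arrays. The other probe set of ZNF322 was higher by 0.058 with Mt-CFX, at 4.75 against 4.69 in the control, and the one used was higher by 0.24, at 6.84 against 6.60. Some went the other way. The other probe set of ZNF785 differed by -0.195 with Mt-CFX, at 3.895 against 4.09 in the control. The probe set used for ZNF785 differed by 0.119, at 5.32 against 5.20. With 1 array per group these differences have no error to be set against.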

How the results depend on the processing

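No paired analysis was possible because each group was 1 array. Of 74 recomputed values, 63 kept within a set limit and 11 did not. The limit was 1.5 times for a count or SD, 1.5-fold for a level and the exact binomial 95% interval for a share. Only the shares of differing genes that were higher can change direction, and 0 did. Their settings reuse many of the same genes, so staying within the interval says little. The interval also takes genes as independent, and with 1 array per group they are not replicates. A floor at the 75th percentile of all probe sets, 5.43, left 154 ZNF genes with a median level of 6.01, of which 33.8% were equal on all 3 arrays, and past 1.5-fold were 1 with Mt-CFX over control, 0 with CFX over control and 1 with Mt-CFX over CFX. With ties counted within 0.05 log2, 54.3% were equal. At 2-fold the counts were 0, 1 and 0 in the same comparisons. With no floor, 5 genes passed 1.5-fold for Mt-CFX over control. The share of differing ZNF genes that were higher, recomputed under 5 settings chosen after seeing the data, ran from 67.8% to 73.5% for Mt-CFX over control, from 59.2% to 67.6% for CFX over control and from 61.0% to 66.2% for Mt-CFX over CFX. Re-centring by a lowess curve breaks exact ties, so it was not applied to these shares. For Mt-CFX over control it shifted no gene of any kind, so it tests nothing there. For CFX over control it moved ZNF genes by at most 0.013. By at least 0.1 log2, 33 were then higher and 30 lower, the same counts as without it. Signals near the floor and exact ties limit what small differences can show.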
